A study of Rattus norvegicus with 8 samples.

Results

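The data cover 10 calcium-binding genes: 7 of the S100 family (S100g, S100a1, S100a4, S100a6, S100a8, S100a9 and S100b), the calbindins Calb1 and Calb2, and parvalbumin (Pvalb). They were chosen by name, as the probes carrying these symbols in the annotation of the array, and each was found once, so that 10 probes stood for 10 of the 21558 symbols, or 10 of the 22523 probes, that were measured. The samples were enamel organs dissected from the mandibular incisors of 4 male Wistar Hannover rats aged 4 weeks. Each rat gave a secretory-stage and a maturation-stage sample, with no treatment or genetic change named for either, and every sample had an Illumina RatRef-12 v1 BeadChip array to itself, so that there were 4 arrays per stage. An enamel organ is a dissected layer of several cell types, in which ameloblasts lie beside supporting epithelium, vessels and connective tissue, so fewer cells of one type and less RNA per cell cannot be told apart.

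Calcium-binding proteins of this kind hold the ion in EF-hands, a helix-loop-helix fold. Calbindins and parvalbumin act mainly as buffers that keep free calcium low inside the cell and carry the ion through it, as S100g, also called calbindin-D9k, does across the intestinal epithelium. Most S100 proteins are small dimers that change shape on binding calcium and then attach to target proteins, and some are released and act outside the cell. During the secretory stage ameloblasts lay down the enamel matrix, and during the maturation stage they break it down and move large amounts of mineral ions into it. Calb1, calbindin-D28k, is well known from ameloblasts.

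Markers of both stages were read first. Enam and Mmp20, an enamel matrix protein and the protease of the secretory stage, were 4.98 and 4.03 lower on the log2 scale in the maturation stage, and Klk4, Slc24a4 and Wdr72, genes of the maturation ameloblast, were 7.57, 5.07 and 1.75 higher (limma, adjusted p of at most 9.82e-04). The matrix genes Amelx and Ambn, at -0.53 and -0.36, were not called. Both were bright in the 2 stages, at normalized values from 13.83 to 14.98, and whether a difference is compressed there was not tested. Each of the 8 arrays was nearer in profile to the arrays of its labelled stage, including maturation arrays 2, 3 and 4, whose source label names the secretory stage against their title and tissue label. Maturation arrays 1 and 4 stood apart in Enam, at 9.08 and 8.22 against 5.17 and 5.53 on arrays 2 and 3. Without these 2 arrays, the same number of the 10 genes, 5, passed the test. Before normalization, the total signal per array was 13355073 to 16122665 at maturation and 11881691 to 12046793 at secretion.

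Promoter sequences are shown for S100a4 and S100a6, the 2 S100 genes on either side of S100a5 that both rose. Each is the 250 bases before the RefSeq gene start, on the forward strand of the GRCr8 assembly, with TATAA, the letters of the TATA box searched on both strands, in capitals. S100a4 lies at chr2:178388279-178388528 and S100a6 at chr2:178398287-178398536.
S100a4: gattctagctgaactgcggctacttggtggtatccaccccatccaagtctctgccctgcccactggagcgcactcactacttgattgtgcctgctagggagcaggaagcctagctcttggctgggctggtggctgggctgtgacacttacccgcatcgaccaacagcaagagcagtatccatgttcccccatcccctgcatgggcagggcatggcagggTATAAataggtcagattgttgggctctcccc
S100a6: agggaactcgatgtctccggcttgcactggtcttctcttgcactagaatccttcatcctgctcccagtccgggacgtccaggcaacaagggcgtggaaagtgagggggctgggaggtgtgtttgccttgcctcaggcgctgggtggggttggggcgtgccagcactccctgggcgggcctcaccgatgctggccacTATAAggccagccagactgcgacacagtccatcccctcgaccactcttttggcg
The first base of TATAA stands 31 bases before the start in S100a4 and 54 bases before it in S100a6. GC made up 57.6% of the S100a4 stretch and 62.4% of the S100a6 stretch. Of 5 members with a promoter sequence in the RefSeq table, 3 held TATAA (S100a4, S100a6 and S100a9), against 24.0% of 33469 promoters. GGGCGG, the core of a GC box, occurred in 2 of the 5 (S100a6 and Pvalb) against 30.5% of promoters, and CCAAT in 1 (S100b) against 34.0%. The AP-1 letters TGANTCA, held by 6.34% of promoters, were found in none of the 5 windows.

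Between the stages, 5 of the 10 genes were called, all higher in the maturation stage: S100g, S100a4, S100a6, S100a8 and S100b. A gene was called at an adjusted p below 0.05 (limma, Benjamini-Hochberg over all 22523 probes) and a change of at least 1.8-fold. Of all probes, 4.6% were called higher and 3.15% lower. No member was called lower, by limma or by the methods' t-test, and 1, S100a1, was lower at an unadjusted p under 0.05 in both. The adjusted p alone was below 0.05 for 6 members, against 26.9% of all probes. In 7 members the 4 values of one stage all lay above the 4 of the other, which held for 27.7% of all probes. With the fitted values of undetected probes included, the median log2 fold change was 0.67 over the 10 members and -0.01 over all probes.

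**Figure D1:**
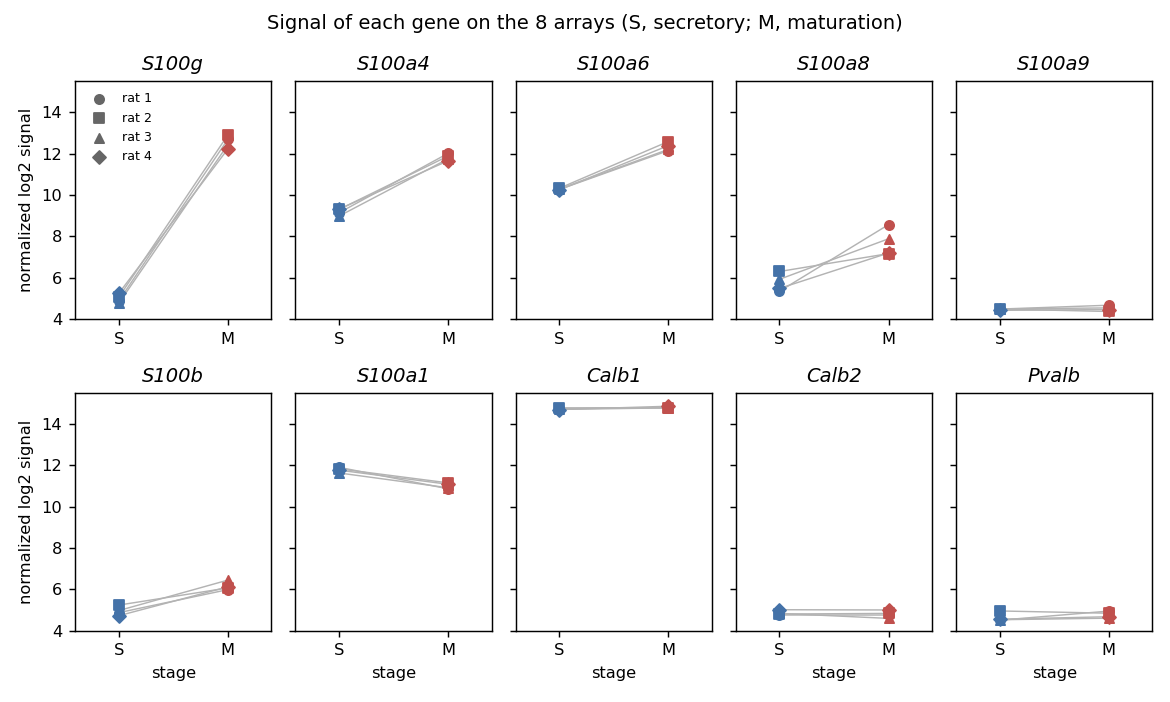
Normalized log2 signal of the 10 genes on the 8 arrays, one panel per gene, with the secretory (S) and maturation (M) samples of each rat joined by a line. S100g rises from 4.76 to 5.24 in the secretory stage to between 12.22 and 12.89 in the maturation stage, and Calb1 stays between 14.68 and 14.84.

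S100g showed the largest difference of the 10. Its normalized log2 signal was 12.68, 12.89, 12.42 and 12.22 in maturation-stage enamel organs of rats 1 to 4, and 4.88, 5.06, 4.76 and 5.24 in their secretory-stage enamel organs. All maturation arrays were far above all secretory arrays, and the secretory signals lay at the edge of detection, passing a detection p of 0.05 on 2 of 4 arrays (rats 2 and 4). On the scale of the deposited signals, before background correction, the values were 8245, 8645, 5547 and 5736 in the maturation stage against 111, 117, 111 and 121 in the secretory stage. The difference in log2 values was 7.57 ± 0.153 (SE; limma, adjusted p = 6.21e-09). Within rats it ran from 6.97 (rat 4) to 7.83 (rat 2), higher in 4 of 4. The size moved with the treatment of background, to 6.52 with an offset of 50 and 5.65 without any background correction, while S100g was still called, so no fold is stated as measured.

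S100g is reported on chromosome X in the annotation of the array, apart from the other S100 genes. Over the 8 arrays, the probes with the closest profiles among 11232 compared were those of Slc34a2, a sodium-phosphate cotransporter (Pearson r = 0.999), of Xdh, xanthine dehydrogenase (r = 0.999), and of Slc24a4, a potassium-dependent sodium-calcium exchanger (r = 0.999). The points of each r are 2 groups of 4 arrays that share their stage, and it is given as a description. The secretory points of S100g and of Slc34a2, which was detected on 3 secretory arrays, lie at the edge of detection. The probe of Xdh carries an older name (LOC497811) in the annotation. Their log2 fold changes were 6.0, 3.22 and 5.07.

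S100a4 and S100a6 also rose, and were detected on all 8 arrays. S100a4, which binds nonmuscle myosin and is known from motile and mesenchymal cells, stood at 12.01, 11.88, 11.74 and 11.65 in the maturation stage and at 9.14, 9.30, 8.98 and 9.31 in the secretory stage. S100a6, calcyclin, stood at 12.14, 12.58, 12.20 and 12.38 against 10.26, 10.32, 10.28 and 10.24. Neither gene overlapped between the stages, and the 4 secretory values of S100a6 lay close together, with an SD of 0.0331.

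The log2 fold change was 2.64 ± 0.102 (SE) for S100a4, a 6.23-fold difference (limma, adjusted p = 1.46e-07). For S100a6 it was 2.05 ± 0.0937, or 4.14-fold (limma, adjusted p = 3.86e-07). Within rats, S100a4 was higher by 2.33 to 2.87 and S100a6 by 1.88 to 2.26. Rat 1 had the largest difference in S100a4 and the smallest in S100a6. The probe closest in profile to S100a4 was that of S100g (r = 0.998 over 8 arrays), followed by Xdh and Slc34a2 (r = 0.997 and 0.996). S100a6 was closest to Slc6a14, an amino acid transporter (r = 0.999), Nrip3 (r = 0.999) and Rcan1, an inhibitor of calcineurin (r = 0.998). Slc6a14 and Nrip3 were detected on the 4 maturation arrays and on 0 secretory arrays, so the secretory points of their r are background. S100g and Slc34a2 were detected on 2 and 3 secretory arrays, so their secretory points lie at the edge of detection.

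Markers of connective tissue and of macrophages, cells in which S100a4 is also known, were read beside these genes. Of 7 fibroblast and mesenchyme markers measured, 1 was called higher (Thy1, log2 fold change 0.97) and 0 lower, and their summed normalized signal was 81476 to 87169 in the maturation stage and 65205 to 76531 in the secretory stage. All 7 were detected on every array. Of 7 macrophage markers, 3 were called higher (Cd68 by 2.19, Cd14 by 1.94 and C1qa by 1.02 on the log2 scale), and their sum was 7376 to 8968 against 3161 to 3858. Every macrophage marker was detected on at least 1 array. Both sums were higher in the maturation stage without overlap, and their part in the rise of S100a4 and S100a6 was not tested.

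**Figure D2:**
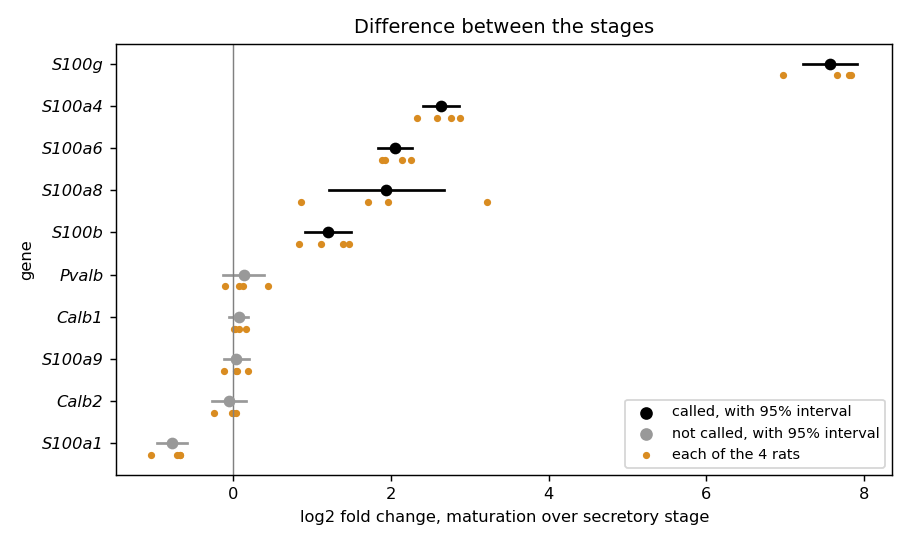
Log2 fold change of each gene, maturation over secretory stage, with its 95% interval from limma (black where called, grey where not) and, in orange below it, the difference within each of the 4 rats. S100a8 has the widest spread between rats, from 0.86 to 3.22, and S100a1 lies below 0 in all 4. S100a9, Calb2 and Pvalb were at background, and their points are fitted values, not measured folds.

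Most S100 genes of the rat lie in one cluster on chromosome 2, and this cluster did not move as a block. The GRCr8 annotation places 16 S100 genes in this cluster, from S100a1 to S100a10, of which 11 were measured here, and S100z elsewhere on the chromosome. S100a4, S100a6 and S100a8 were called higher and none was called lower. S100a5, which lies between S100a4 and S100a6, was detected on all 8 arrays with means of 5.47 and 5.51 and a log2 fold change of -0.05 (SE 0.115, limma, adjusted p = 0.848). This is a low signal, as the lowest detected value per array was 4.93 to 5.06, which limits what its fold can show. S100a13, S100a3 and S100a11 were higher by 0.76, 0.68 and 0.68, and S100a16 by 0.41, each with an adjusted p below 0.05 (limma) but short of 1.8-fold. S100a1, at one end of the cluster, was lower.

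**Figure D3:**
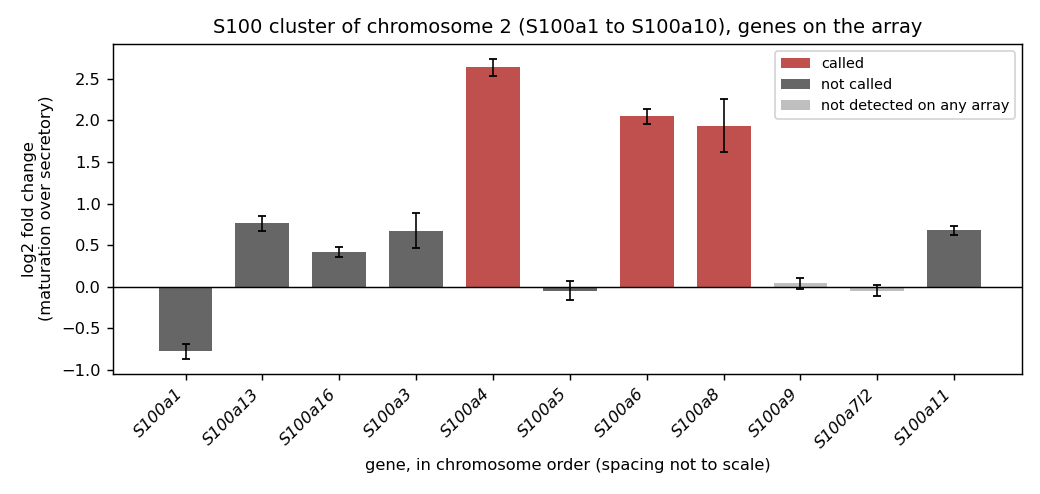
Log2 fold change (bar, maturation over secretory stage, with its SE from limma) of the 11 genes on the array from the S100 cluster of chromosome 2, which leaves out S100z, in chromosome order. The red bars of S100a4, S100a6 and S100a8 stand at 2.64, 2.05 and 1.94, while S100a5 between S100a4 and S100a6, at a low signal, is at -0.05.

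None of 8 further genes, 7 of the S100 family and S100pbp, which encodes an S100P-binding protein and is no family member, was called by limma or by the methods' t-test. At an unadjusted p under 0.05, 4 were higher and 1 lower (S100pbp, log2 fold change -0.43) in both. S100a3 and S100a13 were called where the arrays were scaled on their medians (log2 fold changes 0.93 and 1.10) or not normalized between arrays (1.13 and 1.30). S100a7l2 and S100z were not detected on any array.

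S100a8 was higher in the maturation stage and varied most between rats. S100A8 protein pairs with S100A9 as calprotectin, a major protein of the neutrophil cytosol. The normalized log2 signal of S100a8 was 8.57, 7.17, 7.88 and 7.19 in the maturation stage and 5.35, 6.30, 5.92 and 5.48 in the secretory stage, detected on all 8 arrays. Every maturation value lay above every secretory value, but rat 1 had the highest maturation and the lowest secretory value. The log2 fold change was 1.94 ± 0.324 (SE), or 3.83-fold with a 95% interval of 2.31 to 6.35 (limma, adjusted p = 0.0014). Within rats the difference was 3.22, 0.86, 1.96 and 1.71. The secretory signals lay near background, at 122, 157, 141 and 126 as deposited, with detection p-values up to 0.0267. The size of the change moved with the treatment of background. Without background correction the log2 fold change was 1.05 and still called. Without maturation array 1 or any other single array it was between 1.63 and 2.13.

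S100a9 was not detected on any array. Its normalized values were 4.67, 4.37, 4.54 and 4.46 in the maturation stage and 4.49, 4.49, 4.49 and 4.43 in the secretory stage, with detection p-values from 0.205 to 0.941. The stages overlapped, and as both were below background no fold is given (limma, adjusted p = 0.791). S100a8 signal was thus measured on arrays where the probe of its partner gave none above the negative controls.

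Of 10 neutrophil markers measured, 1 was called higher, Lcn2 (lipocalin 2, also made by epithelia), and 0 lower. Elane, Ltf, Csf3r and Cxcr2 were not detected on any array, and only Lcn2 was detected on all 8. The summed signal of the list was 435 to 812 in the maturation stage and 291 to 378 in the secretory stage. Lcn2 had the highest signal of the list on every array, and within each stage the sum ranked the arrays as Lcn2 did. The sum thus follows Lcn2 in large part, and whether the other markers together separate the stages was not tested. Camp, a granule peptide, gave 6.08, 5.53, 5.28 and 5.33 against 4.91, 5.37, 4.99 and 5.0, a log2 fold change of 0.49 that did not pass (limma, adjusted p = 0.0718), and rat 1 had the highest maturation and the lowest secretory value there too. Ngp and Cd177, at 5.63 and 5.01, were detected on maturation array 1 and on no other array. Mpo, myeloperoxidase, differed by 0.04 (limma, adjusted p = 0.877) and was not detected on either array of rat 1. The summed signal was highest on maturation array 1, where S100a8 and Lcn2 were highest too. The part of neutrophils in the S100a8 signal was not tested.

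Lcn2 was one of the probes closest in profile to S100a8. Its values were 9.0, 7.87, 8.53 and 7.58 in the maturation stage and 6.22, 6.94, 6.49 and 5.73 in the secretory stage, so that in both genes rat 1 and then rat 3 led in the maturation stage and rat 2 and then rat 3 in the secretory stage. The lowest values were in different rats, rat 2 for S100a8 and rat 4 for Lcn2 in the maturation stage, and rat 1 for S100a8 and rat 4 for Lcn2 in the secretory stage. The Pearson r of Lcn2 with S100a8 was 0.985 over the 8 arrays. Only Fbn1, fibrillin 1, was closer (r = 0.994, with a log2 fold change of 0.49), and Gpx3, glutathione peroxidase 3, came after it (r = 0.981, log2 fold change 0.70).

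**Figure D4:**
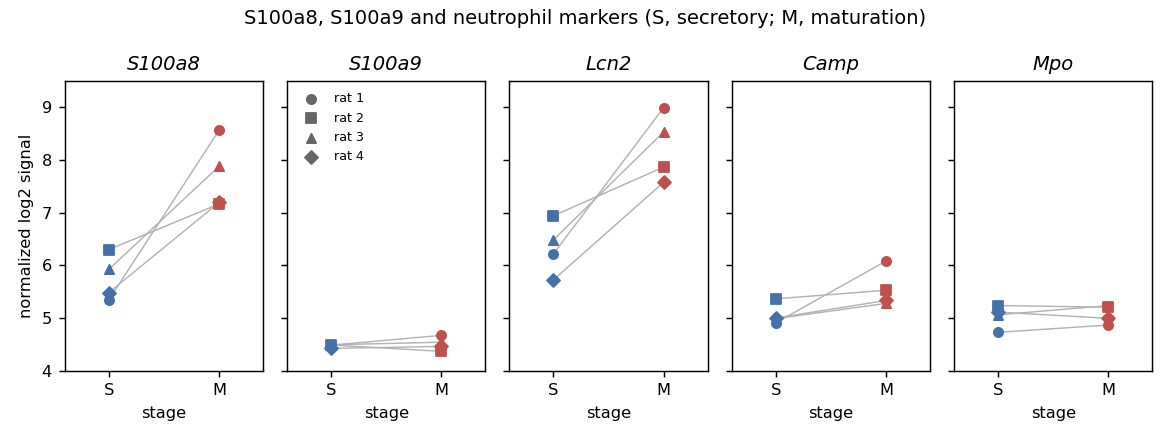
Normalized log2 signal of S100a8, S100a9 and the neutrophil markers Lcn2, Camp and Mpo on the 8 arrays, with the 2 samples of each rat joined. S100a8 and Lcn2 rise in every rat, with the steepest lines in rat 1 for S100a8 (5.35 to 8.57), while S100a9 stays between 4.37 and 4.67.

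S100b, best known from Schwann cells and other glia, was higher in the maturation stage at a low signal. Its values were 5.99, 6.07, 6.45 and 6.12 in the maturation stage, detected on all 4 arrays, and 4.88, 5.24, 4.98 and 4.73 in the secretory stage, detected on 1 (rat 2). The stages did not overlap. The log2 fold change was 1.20 ± 0.128 (SE), or 2.30-fold (limma, adjusted p = 8.26e-05), and the differences within rats ran from 0.83 to 1.47. The call rested on how background was treated: without background correction the log2 fold change was 0.43 and with an offset of 50 it was 0.70, both under 1.8-fold.

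Of 8 Schwann cell and glia markers, 0 were called higher by limma or by the methods' t-test, with 3 and 2 higher at an unadjusted p under 0.05, and 1 was called lower (Ngfr, the low-affinity neurotrophin receptor, by 1.53 on the log2 scale). Their summed signal was 811 to 1035 in the maturation stage and 1070 to 1360 in the secretory stage, the opposite order to S100b. Each of the 8 was detected on at least 1 array. Sox10, a transcription factor of these cells, was detected on the 4 maturation arrays and on 0 of the secretory arrays, at 5.49 ± 0.143 and 4.82 ± 0.166 (SD, n = 4). It was at least 1.36-fold higher (limma, adjusted p = 6.88e-04), a bound that leaves unknown whether 1.8-fold was reached. The part of glia in the S100b signal was not tested.

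S100a1, known for its effect on calcium release in heart and skeletal muscle, was the only member of the 10 that was lower in the maturation stage with an adjusted p below 0.05. It stood at 10.86, 11.14, 10.91 and 11.08 in the maturation stage and at 11.90, 11.82, 11.62 and 11.76 in the secretory stage, without overlap. The log2 fold change was -0.78 (SE 0.0863), a 1.72-fold difference with a 95% interval of 1.5 to 1.96 (limma, adjusted p = 1.05e-04), in 4 of 4 rats. That is short of 1.8-fold, and S100a1 was called under none of the 18 alternatives. With no normalization between arrays the log2 fold change was -0.35, under which the median of all probes was 0.13. The closest profiles were those of Kifap3 (r = 0.996), Ets2 (r = 0.994) and Tmeff1 (r = 0.993), with log2 fold changes of -0.86, -1.17 and -0.90.

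Of 8 skeletal muscle markers, 0 were called by limma or by the methods' t-test, with 2 (Tnnt3 and Myh2) and 1 higher at an unadjusted p under 0.05. Their summed signal was 295 to 1218 in the maturation stage and 306 to 693 in the secretory stage, and Myh4 and Myh2 were not detected on any array. Maturation array 4 held the 1218 and the other 3 maturation arrays 295 to 423, and the stages overlapped with and without it. The part of muscle in the S100a1 signal was not tested.

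Calb1 was bright in both stages, and its difference between them was small and did not pass the test. Its normalized log2 signal was 14.77, 14.77, 14.77 and 14.84 in the maturation stage and 14.75, 14.76, 14.69 and 14.68 in the secretory stage. The difference in log2 values was 0.07 with a 95% interval of -0.05 to 0.18 (limma, adjusted p = 0.451), and its sign turned with cyclic loess (-0.06) and with median scaling (-0.12). After normalization Calb1 was higher in the maturation stage in 4 of 4 rats and the stages did not overlap (exact two-sided permutation test, p = 0.0286, the smallest it can give), and the methods' t-test gave an unadjusted p under 0.05 and an adjusted p of 0.151. As deposited the stages overlapped, at 30225, 28629, 26037 and 29325 in the maturation stage and 27176, 26782, 26287 and 27363 in the secretory stage (exact two-sided permutation test, p = 0.143, n = 4 and 4). These signals were 80.3% to 93.5% of the brightest signal on their array, and whether the upper end of the scanner's range compresses a difference there was not tested. The probes closest in profile were those of LOC497745 (r = 0.968), Rasl11b (r = 0.930) and Lancl3 (r = 0.926).

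Calb2 (calretinin) and Pvalb, buffers of neurons and, for Pvalb, of fast muscle, were at background. Calb2 was detected on 1 of 8 arrays, maturation array 4, and stood at 4.76, 4.84, 4.60 and 5.01 in the maturation stage and 4.76, 4.81, 4.84 and 5.02 in the secretory stage. Pvalb was detected on maturation array 1 alone, at 4.95, 4.85, 4.61 and 4.68 against 4.51, 4.96, 4.53 and 4.56. Both overlapped between the stages and neither passed (limma, adjusted p = 0.765 and 0.517), and with 1 detection each no fold is given. Of 6 neuron markers, 1 was called higher (Snap25, a synaptic vesicle fusion protein, at least 15.7-fold, undetected on the secretory arrays) and 2 lower (Tubb3 and Uchl1, by 2.58 and 1.12). Their sum was 774 to 888 in the maturation stage and 763 to 831 in the secretory stage, and Nefl was not detected on any array.

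Related genes outside the family moved in both directions. Of 23 cytosolic EF-hand genes measured, 4 were called higher, 2 lower and 17 not called, with a median log2 fold change of 0.05, or 0.03 with undetected genes at their bound. Cib2 and Cib1, which bind calcium and integrins, rose by 2.07 and 0.89 (Cib2 has a second probe, which was not detected on any array), Efhd2, swiprosin, by 1.49, and Chp1, a partner of sodium-proton exchangers, by 0.86. Ncs1, neuronal calcium sensor, fell by 1.45, and Cabp1, which binds calcium channels, was at least 1.98-fold lower, being undetected in the maturation stage. Without background correction only Cib1 and Cib2 of this list were called, and Cabp1 was also not called with an offset of 50. Chp1, at 1.82-fold, lay at the threshold and was not called under 6 of 18 alternatives: at 0.80 without maturation array 4, 0.84 and 0.81 without secretory arrays 2 and 4, 0.83 without maturation arrays 1 and 4, 0.84 with an offset of 50 and 0.81 without background correction.

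Among 4 EF-hand genes of the lumen of the secretory pathway (Rcn1, Rcn2 and Rcn3 of the endoplasmic reticulum and Sdf4 of the Golgi), 1 was called lower, Rcn2, reticulocalbin 2, which fell by 1.46. Rcn3 had a log2 fold change of -0.73, short of 1.8-fold, while Rcn1 and Sdf4 differed by 0.11 and -0.11. The median of the 4 was -0.42. None was called higher by limma or by the methods' t-test, nor was any higher at an unadjusted p under 0.05 (0 in both).

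Of 11 partners and receptors of S100 proteins, 1 was called higher, Anxa1, annexin A1, which binds S100A11 and rose by 1.31 (limma, adjusted p = 9.55e-05), and 0 lower. At an unadjusted p under 0.05, 2 were lower with limma (Nptn and Sugt1, by -0.59 and -0.19 on the log2 scale) and 1 with the methods' t-test. Their median log2 fold change was -0.00. Ager, the receptor for advanced glycation end products, differed by -0.02 and Cacybp, the calcyclin-binding protein, by 0.14. Anxa2 differed by -0.07. Tlr4 and Ahnak were not detected on any array.

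The other genes of calcium transport across the intestine and kidney were not called higher beside S100g. Of 7 genes of the epithelial calcium route and the vitamin D system, 0 were called higher by limma or the methods' t-test, with 0 at an unadjusted p under 0.05 in that direction, and 1 was called lower. That gene was Atp2b1, a calcium pump of the plasma membrane, which fell by 2.45 on the log2 scale (SE 0.101, limma, adjusted p = 2.20e-07), from 12.30, 12.09, 11.93 and 11.96 in the secretory stage to 9.83, 9.60, 9.53 and 9.5 in the maturation stage. Trpv6, the apical calcium channel, differed by -0.21 (95% interval -0.53 to 0.10) and Vdr, the vitamin D receptor, by 0.10 (-0.09 to 0.28), and neither passed (limma, adjusted p = 0.344 and 0.512). Vdr lay at the edge of detection, with means of 5.05 and 4.95 in the maturation and secretory stages. It was detected on 4 maturation and 2 secretory arrays, so its narrow interval does not show that Vdr stayed level. Rxra, the partner of Vdr, differed by -0.17. Trpv5, Slc8a1 and Cyp24a1 were not detected on any array. The median of the 7 was -0.08.

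The remaining marker lists gave few calls. Of 3 endothelium markers, Vwf was called higher (log2 fold change 0.88), with a sum of 2154 to 3119 in the maturation stage and 1152 to 1775 in the secretory stage and Cdh5 undetected. Of 4 erythroid markers none was called by limma or by the methods' t-test, with 0 and 0 higher and 1 (Alas2) and 0 lower at an unadjusted p under 0.05. Their sum was 47951 to 54979 against 41467 to 57706.

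**Figure D5:**
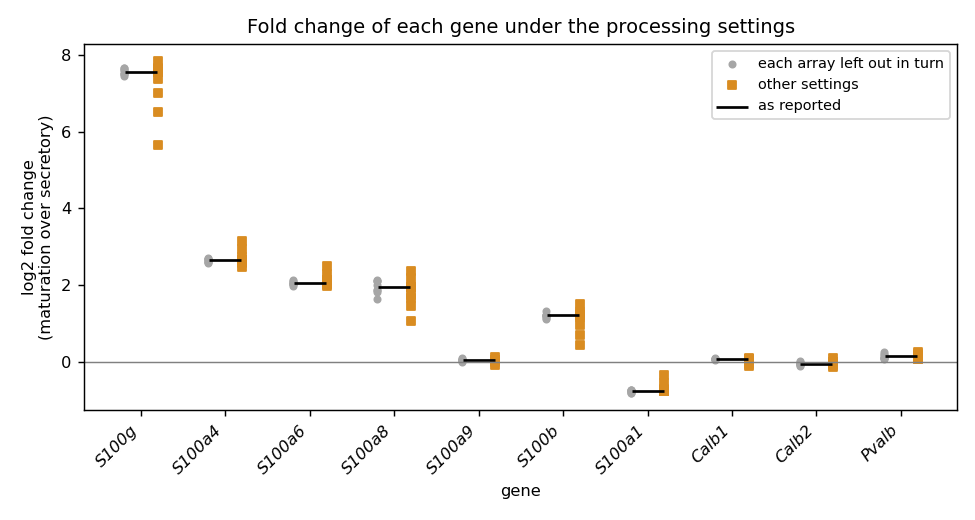
Log2 fold change of each gene (maturation over secretory stage) as reported (black dash), with each array left out in turn (grey points) and under the other processing settings (orange squares). S100g spans 5.65 to 7.86 and S100b 0.43 to 1.5, while the values of Calb1, and the fitted values of S100a9 and Calb2 at background, fall on both sides of 0.

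The 5 members called were higher in every rat. S100g, S100a4, S100a6 and S100a8 were called under all 18 alternatives and S100b under 16. With 4 arrays per stage, the smallest p that an exact two-sided permutation test over the arrays can give is 0.0286, and 7 members reached it on the normalized values (S100g, S100a1, S100a4, S100a6, S100a8, S100b and Calb1).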

How the data were processed

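Total RNA of 8 enamel organ samples was measured on mRNA arrays, 1 per sample. The authors deposited 1 table of intensity values, the average signal of the beads of each probe, with neither background correction nor normalization, and beside it the detection p-value, bead count and bead standard error. The summarising software and genome build are not given in the sources used here. The 10 probes were read from 27 to 72 beads per array, with bead errors of 1.97% to 4.65% of the signal, and the number of arrays limits precision.

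Background was corrected by neqc of limma 3.58.1 (R 4.3.3), which inferred the negative controls from the detection p-value column, with an offset of 16 before quantile normalization and log2. All 22523 probes entered an unpaired lmFit and eBayes fit. Probes whose detection p was at least 0.05 on each of the 4 arrays of a stage count as undetected in that stage, and their fold is a lower bound. Exact permutation tests were run in scipy 1.17.1 under Python 3.11.15. A gene with 2 probes was read from the one of higher mean. Current symbols and gene order came from a GRCr8 table, by gene ID.

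The members and lists were chosen with earlier results of these data known. Named were all 10 members, from each other list the 5 largest changes among called genes (short lists whole), and the 3 probes of most similar profile. S100a5, Chp1, the other S100 genes, Camp, Ngp, Cd177, Mpo, Sox10 and further list genes without a call were picked after their values were seen. Stages came from titles and tissue labels. Both samples of a rat carry its number, which pairs them: their deviations from the stage means correlated at 0.195, 0.129, 0.219 and 0.234 over 11233 probes, against -0.0833 to -0.0426 on average between different rats. Alternatives varied background, offset, normalization, filter, test, threshold, pairing and arrays.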

Additional observations from a re-analysis of the deposited data

Results flagged for a closer look

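Of 46 sets of 4 values examined, 2 held a sample far from the others, where 2.30 would be flagged by chance. The normalized log2 signal of Calb1 was 14.84 on maturation array 4, against 14.77 to 14.77 on the other maturation arrays. Quantile normalization sets a value by its rank on the array, and maturation arrays 1 and 2 had the same Calb1 value. As deposited, the signal of array 4 (29325) lay within those of the other maturation arrays (26037 to 30225). The summed signal of the skeletal muscle markers was 1218 on maturation array 4, against 295 to 423 on the other maturation arrays.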

How the results depend on the processing

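S100g, S100a4, S100a6 and S100a8 kept their direction and call under all 18 alternatives, and 5 members were called with each single array left out. S100b had log2 fold changes of 0.43 without background correction and 0.70 with an offset of 50 and was not called there, which left 4 members called; the cause was not tested. S100a9 and Calb2 were at background, so their values here are those of the fit and their signs are not read. For S100a9 they were -0.090 with median scaling and -0.017 without maturation arrays 1 and 4, and -0.015 to 0.085 with single arrays left out. For Calb2 they were 0.10 with no normalization between arrays and -0.12 to 0.011 with single arrays left out. The sign of Calb1, which was not called, turned with cyclic loess (-0.064) and median scaling (-0.12). Over all probes, 1745 were called, and 927 without background correction. Of the called probes 59.3% were higher in the maturation stage, against 77.6% with median scaling and 87.2% with no normalization, where the median of all probes moved to 0.13. Other S100 genes called numbered 2 (main 0) with either of these settings, and cytosolic EF-hand genes 2 (main 6) without background correction. With the rat as a replicate block, 5 members and 1750 probes were called, no call of a member changed, and the counts of the 5 other lists were as in the unpaired fit. No normalization, and leaving out maturation arrays 1 and 4, were chosen after seeing the data. Signals near background (S100a9, Calb2, Pvalb, and S100g, S100a8 and S100b in the secretory stage) limit what folds can show.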
